A study of Mus musculus with 2 samples.

Results

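The genes described here encode the proteins of adherens, tight, gap and desmosomal junctions in mDE6 cells, which the labels describe as odontogenic epithelium of the mouse. They were chosen as a fixed list of 41 symbols, and all probes carrying one of these symbols were taken from both arrays. The old and the current symbol of nectin-1 (Pvrl1 and Nectin1) are on the list together, so that it holds 40 genes, and all 40 had at least 1 probe on the array (71 of 56605 distinct probes, and 40 of 37074 gene names). By class the list holds 5 adherens junction genes, 19 tight junction genes, 11 desmosome genes, 4 gap junction genes and Epcam, which encodes an adhesion protein of epithelia.

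Total RNA of mDE6 cells was labelled with Cy3 and hybridised to Agilent arrays, 1 array for the DMSO vehicle control and 1 array for CHIR99021, an inhibitor of GSK-3 that activates the β-catenin pathway, both at 6 h. The labels give the CHIR99021 dose as 5 mM whereas the study's methods give the same figure in μM, the DMSO percentage is printed unclearly in the label, and the methods call the control untreated. The methods also name a human array, whereas the file header names a mouse design on build mm9. With 1 array per condition no difference has a replicate check, no test across arrays was possible, and the number of arrays limits the precision.

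Adherens junctions join neighbouring cells through classical cadherins and nectins, which are tied to actin by catenins. β-catenin works both in this complex and as the transcriptional effector of Wnt signaling. Tight junctions seal the space between cells with claudins, occludin and junctional adhesion molecules held on scaffold proteins. Desmosomes tie desmogleins and desmocollins to keratin filaments through plakoglobin, plakophilins and desmoplakin, and gap junctions are channels made of connexins. In the tooth germ, junctions hold the dental epithelium together as it folds.

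Signals are the deposited intensities after background subtraction, and ratios are CHIR99021 over control after each signal was divided by its array's 75th percentile (487 in the control, 469 with CHIR99021). A spot counted as detected when the scanner software marked it as well above background. The lowest such signal was 23.7 in the control and 26.3 with CHIR99021. Genes are called lower at ratios up to 0.66 where the Z-score is also -2 or less, and called higher from a ratio of 1.5 where the Z-score is also 2 or more. The Z-score sets a log2 ratio against the 500 tested probes nearest in mean signal. The tested probes are those detected on at least 1 array. For a gene with several probes the tested probe with the highest mean signal stands for the gene, unless another probe is named. The SD of the log2 ratio over spots of the same probe, measured on 264 probes printed repeatedly, was 0.03. The error that the scanner software estimates for each spot was larger, and gave errors of the log2 ratio of 0.20 to 0.28 for the member probes measured on both arrays. Neither error includes differences between cultures.

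Large ratios were unevenly placed on the arrays. Differences of more than 4-fold with detection on 1 array only were found for 1182 probes. Of these, 93.1% were in the later rows, beyond the middle of the array, where 51.6% of the tested probes were printed. An uneven spot is one whose pixel SD over its mean exceeded 0.260 in the control or 0.261 with CHIR99021.

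On the vehicle array 18 of the 40 junction genes (45.0%) had at least 1 probe well above background, whereas 64.1% of the 20153 genes with a RefSeq mRNA accession on the array did. On the CHIR99021 array 15 of the 40 did. On both arrays 13 genes were measured, 7 were measured on 1 array, and 20 had no probe well above background on either array. Adherens junction genes were detected most often, 4 of 5 on the control array. Next came gap junction genes (2 of 4), desmosome genes (5 of 11) and tight junction genes (7 of 19). Several of the best known genes of an epithelial junction were among the 20 without a detected probe: Cdh1 (E-cadherin), Ocln (occludin), Dsp (desmoplakin) and Epcam. The single probe of Cdh1 gave 5.51 in the control and 6.13 with CHIR99021, and that of Epcam gave 5.23 and 5.76. The single probe of Ocln gave 5.01 and 5.52, and that of Dsp gave 5.59 and 6.01. The spots of negative controls had a median of 5.35 and 5.98, so that these 4 genes lay at the level of the negative controls. Over the 26 probes of the 20 genes the control signal ran from 4.68 to 23.1 with a median of 5.63, and 11 of the 26 lay in the earlier rows. A probe that is not well above background gives only a bound, and says nothing about protein.

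**Figure D1:**
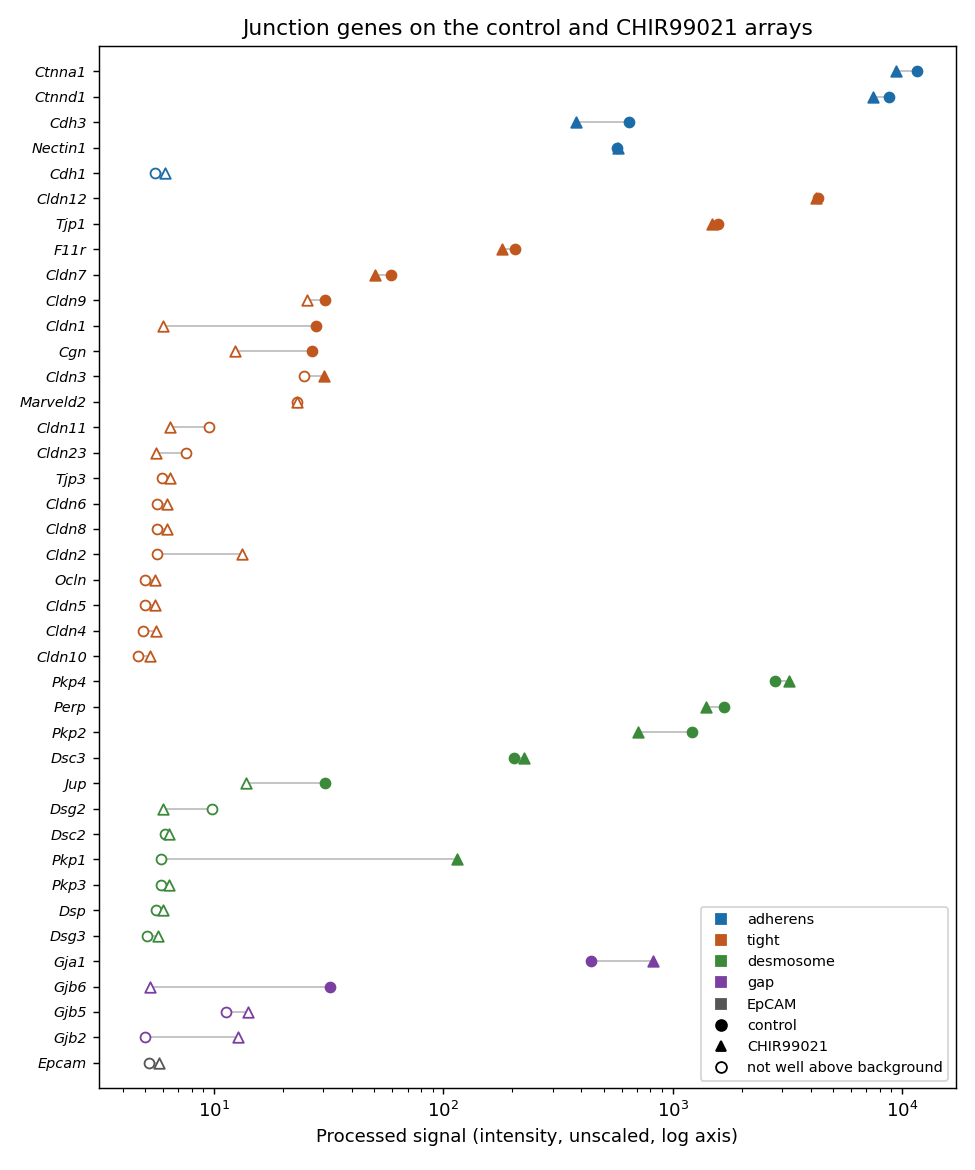
Processed signal of each junction gene on the control array (circles) and the CHIR99021 array (triangles), on a log axis, at the probe that stands for the gene, or at its brightest probe where none was detected. Open marks are not well above background; levels of different genes come from different probes and are not comparable. Cdh1, Ocln, Dsp and Epcam lie near 5 to 6, whereas 13 genes have filled marks on both arrays.

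The labelled cell type was set against marker lists. Of 10 epithelial markers, 5 were detected on the control array, among them Trp63 (2306 in the control and 2896 with CHIR99021), the transcription factor p63 of stratified epithelia. A further Trp63 probe was detected in the control only (77.1 and 5.58) at an uneven spot in row 313. The others of its 4 probes were detected on neither array. Krt5, a basal keratin, gave 5.51 (not well above background) and 165, at least 7.24-fold higher, at an uneven spot in row 379. The keratins Krt14 and Krt17 and the splicing regulator Esrp2 were detected on both arrays, at 48.5 and 54.6, 62.4 and 59.8, and 64.9 and 37.9. Krt18 gave 25.7 and 20.4 and was detected in the control only, and Krt8, Krt19, Grhl2 and Esrp1 were not well above background on either array. Of the dental epithelium markers, Shh, Sox2, Amelx, Ambn and Enam were not well above background on either array. All 10 mesenchymal markers were detected on both arrays, among them Vim (52302 and 45883), Col1a2 (270783 and 242601) and Prrx1 (14806 and 14454). The summed signal of the mesenchymal markers was 596396 in the control and 544915 with CHIR99021, and that of the epithelial markers was 2554 and 3281, over other probes whose levels are not comparable. Of the other lists, all 3 leukocyte markers (summed signal 2928 and 3081) and 1 of 4 endothelial markers (45.9 and 44.0) were detected on the control array. The leukocyte marker Ptprc was detected at only 1 of its 7 probes, and that probe (1709 and 1764) gave much of the leukocyte sum. The cells are therefore called mDE6 cells here, by the label. On at least 1 array 6 of the 10 epithelial markers had a detected probe, whereas the epithelial junction genes Cdh1 and Epcam did not. Fewer cells of a type and less RNA per cell cannot be told apart in a bulk sample, and the part of other cells in these values was not tested.

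**Figure D2:**
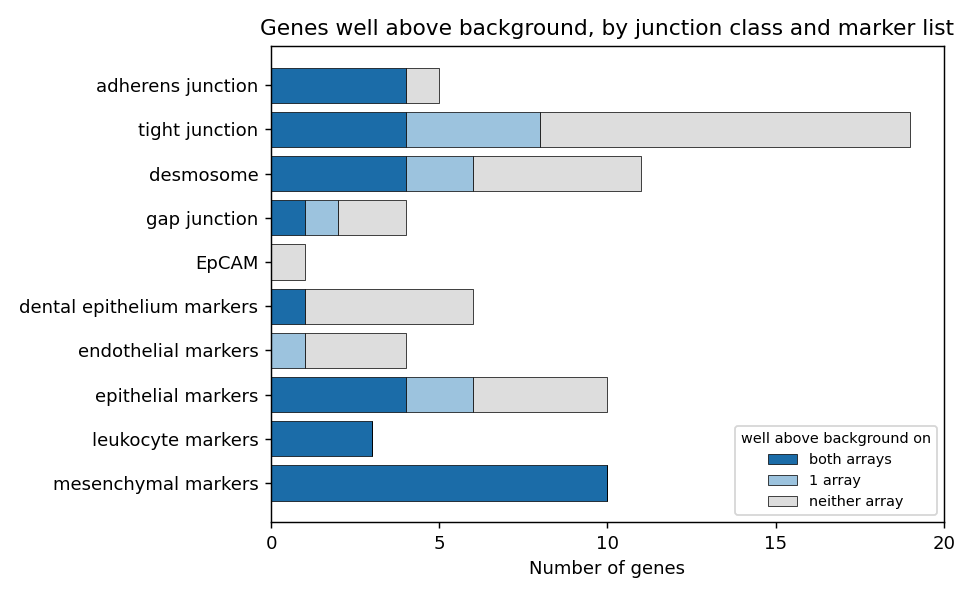
Number of genes well above background on both arrays, on 1 array or on neither, for each junction class and each marker list. All 10 mesenchymal markers were measured on both arrays, whereas 11 of 19 tight junction genes and 5 of 6 dental epithelium markers were on neither.

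Regulators that repress or maintain the epithelial junction programme were read from a separate list of 12 genes, of which 9 were detected on both arrays. The list and the 9 include Cdh2 and Vim, which are markers and not regulators. Snai1 and Snai2, zinc finger repressors that bind E-boxes, gave 4347 and 4913 in the control and 3881 and 3364 with CHIR99021, with ratios of 0.926 and 0.710. Zeb1 gave 585 and 702 (ratio 1.24) and Zeb2 gave 1426 and 1638 (ratio 1.19). Twist1 gave 647 and 967, a ratio of 1.55 (Z-score 1.67), at a spot in row 381. Ovol1, Grhl2 and Elf3, which favour an epithelial state, were not well above background, whereas Ovol2 gave 2239 and 1797 (ratio 0.832). None of the 12 met the ratio and Z-score criteria.

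Because Snail and Zeb proteins bind the E-box CACCTG, the 250 bases before the start of each junction gene were searched for it on both strands, in the promoter table of RefSeq (build GRCm38.p6). The table held 34 windows for 25 of the 40 genes. Of these windows 10 (29.4%) held the E-box, against 17.2% of all 32841 windows. Among the 13 genes with no detected probe that it held, 6 had an E-box, and of the 12 detected genes 3 had one. The match is a description of letters and was not tested as a binding site. The windows of Epcam and Ocln are shown as genes of epithelial junctions with no detected probe, and that of Cldn7 as a detected claudin with the same letters. They were picked because they hold the letters. Dsp, also without a detected probe, had a window with no E-box, and Cdh1 had no window in the promoter table. Capitals mark CACCTG or its complement CAGGTG. The Epcam window is chr17:87635729-87635978 on the plus strand, the Ocln window chr13:100552499-100552748 on the minus strand and the Cldn7 window chr11:69965171-69965420 on the plus strand. A second window of Ocln and another of Cldn7 held no match.
Epcam: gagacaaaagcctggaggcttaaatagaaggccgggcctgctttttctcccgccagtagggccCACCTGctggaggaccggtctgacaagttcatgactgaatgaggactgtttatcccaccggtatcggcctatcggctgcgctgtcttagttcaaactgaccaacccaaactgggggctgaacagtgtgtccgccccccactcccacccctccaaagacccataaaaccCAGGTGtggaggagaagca
Ocln: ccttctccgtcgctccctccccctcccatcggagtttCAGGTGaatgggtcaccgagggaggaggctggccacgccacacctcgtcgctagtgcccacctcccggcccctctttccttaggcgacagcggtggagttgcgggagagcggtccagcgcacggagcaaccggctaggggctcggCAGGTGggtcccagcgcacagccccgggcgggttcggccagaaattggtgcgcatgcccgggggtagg
Cldn7: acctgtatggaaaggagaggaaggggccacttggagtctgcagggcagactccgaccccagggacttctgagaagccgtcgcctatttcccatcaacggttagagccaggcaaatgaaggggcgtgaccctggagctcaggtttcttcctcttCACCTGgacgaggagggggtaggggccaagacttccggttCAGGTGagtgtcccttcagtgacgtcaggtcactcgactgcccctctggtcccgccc
The matches began 187 and 19 bases before the start of Epcam, 213 and 68 before that of Ocln and 97 and 57 before that of Cldn7.

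Among the adherens junction genes, the catenins were bright and nearly level between the arrays. Ctnna1, which encodes α-catenin, gave 11596 in the control and 9403 with CHIR99021, a ratio of 0.841, and a dim second probe gave 65.3 and 57.1, a ratio of 0.907. Ctnnd1 (p120-catenin, which stabilises cadherins at the membrane) gave 8751 and 7523, a ratio of 0.892. A pair of dimmer Ctnnd1 probes gave 135 and 106.7 (ratio 0.819) and 124 and 119 (ratio 0.992), and its other probes were not well above background on either array. The 3 Ctnnd1 probes thus spanned a 70.5-fold range of signal with ratios within 0.819 to 0.992. Nectin1, an immunoglobulin-like adhesion protein, gave 571.2 and 575 at its probe on chr9:43615340-43615399 (mm9), a ratio of 1.04. Cdh3 (P-cadherin, a classical cadherin of basal epithelial cells) fell outside this range. Its single probe, chr8:109079933-109079992 (mm9), gave 649 in the control and 381 with CHIR99021, a ratio of 0.609 and a log2 ratio of -0.72 with a scanner error of 0.21. The ratio passed 0.66 but the Z-score of -1.90 did not reach -2, so Cdh3 did not meet both criteria.

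Of the 13 junction genes measured on both arrays, 2 had a ratio of at most 0.66 (Cdh3 and Pkp2) and 1 a ratio of at least 1.5 (Gja1). The other 10 lay between these limits. Among all 16887 genes measured on both arrays 5.76% had a ratio of at most 0.66 and 5.06% one of at least 1.5, and no test of the 2 and 1 of 13 against these shares was made. The median log2 ratio of the 13 genes was -0.15, and that of the 16887 genes was 0.03. Counting also genes measured on 1 array, 6 of 20 tested junction genes had a computed ratio of at most 0.66 and 2 one of at least 1.5, against 9.67% and 8.05% of the 18838 tested genes. The 4 that this adds at the low end (Cldn1, Cgn, Jup and Gjb6) and the 1 at the high end (Pkp1) were not measured on both arrays. By ratio and Z-score together 1 junction gene was lower (Pkp2) and 2 were higher (Gja1 and Pkp1), against 3.22% and 2.63% of all tested genes. The median log2 ratio of the 20 was -0.18, or -0.09 with limits in place of computed ratios, and that of the tested genes was 0.02.

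**Figure D3:**
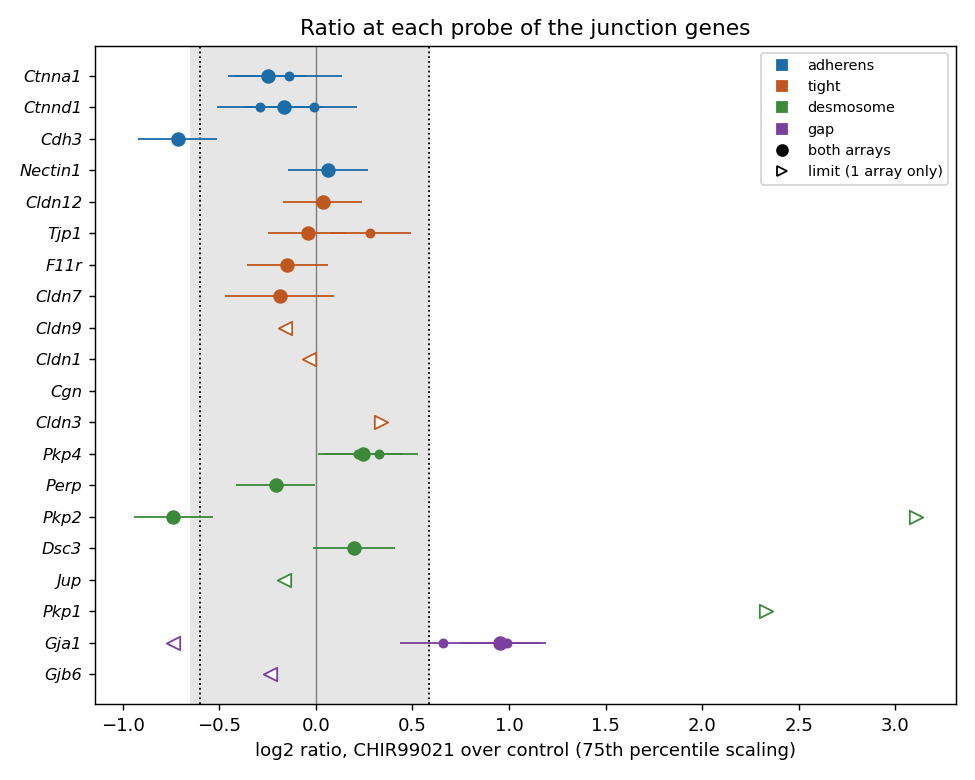
log2 ratio of CHIR99021 over control at every junction gene probe that was detected. Filled marks were measured on both arrays, large where they stand for the gene, with the scanner software's error as a bar. Open triangles are limits, pointing away from 0. Cgn has none, and the mark of Cldn3 is its computed ratio. The grey band holds the 5th to 95th percentile of all genes measured on both arrays, dotted lines mark ratios of 0.66 and 1.5, and 16 of the 21 filled marks lie between the lines.

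Connexin 43 is encoded by Gja1, the most widely expressed connexin, and it was the junction gene with the highest ratio measured on both arrays. The probe with the highest signal, chr10:56109814-56109873 (mm9), gave 441 in the control and 825 with CHIR99021, a ratio of 1.94 and a log2 ratio of 0.96 with a scanner error of 0.21. Its Z-score was 2.64, and the log2 ratio ranked 16665 from the lowest among 16887 genes, at percentile 98.7. A second probe, placed elsewhere on the array, gave 327 and 625, a ratio of 1.98 (Z-score 2.60). A further probe near the 5′ end, chr10:56097212-56097271 (mm9), gave 101 and 154, a ratio of 1.58 (Z-score 1.27). All 3 lay in the earlier rows (146, 31 and 113) and none was uneven on the CHIR99021 array. One more probe, designed on another transcript with a different 5′ end, went the other way at low signal, 45.5 on the control array and 7.95 (not well above background) on the CHIR99021 array, which is at least 1.67-fold lower. It lay in row 335, was uneven on the control array and had 6 of the large 1-array spots within 3 rows and columns. The remaining Gja1 probes were not well above background on either array. The mean log2 ratio over all 4 tested Gja1 probes gave a ratio of 1.02, because of that last probe.

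Because CHIR99021 acts through β-catenin and its TCF/LEF partners, the window before the start of Gja1, chr10:56377050-56377299 (GRCm38.p6, plus strand), was searched for the TCF/LEF core CTTTG followed by 2 bases that are each A or T, on both strands. No match was found, while 14.8% of all windows of the table held at least 1 match. Of the 34 junction gene windows 2 did (5.88%), those of Cldn4 and Cldn10, neither of which had a detected probe. This says only that the letters are absent from this window. The Gja1 window is printed in lower case throughout, since there is nothing to mark.
Gja1: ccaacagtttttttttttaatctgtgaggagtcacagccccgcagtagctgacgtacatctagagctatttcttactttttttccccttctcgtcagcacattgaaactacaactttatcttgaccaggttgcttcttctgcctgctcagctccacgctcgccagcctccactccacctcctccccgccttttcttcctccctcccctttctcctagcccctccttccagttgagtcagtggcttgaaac

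The other connexins on the list were dim. Gjb6 (connexin 30) gave 32.2 in the control and 5.27 with CHIR99021, at least 1.18-fold lower, at a spot in row 194 that was uneven on the control array. Gjb2 (connexin 26) and Gjb5 (connexin 31.1) were not well above background on either array.

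Desmosome genes held the lowest ratio measured on both arrays, and a gene whose probes went opposite ways. Pkp2, which encodes plakophilin 2, an armadillo protein of the desmosomal plaque, gave 1221 in the control and 706 with CHIR99021 at chr16:16272648-16272707 (mm9). The ratio was 0.600, the log2 ratio -0.74 with a scanner error of 0.20 and the Z-score -2.22. This was the only junction gene that met the criteria for lower. A second Pkp2 probe, chr16:16248126-16248185 (mm9), gave 23.5 (not well above background) in the control and 197 with CHIR99021, at least 8.63-fold higher, and the other Pkp2 probe was detected on neither array. The rising probe lay in row 376 of 384, had a pixel SD over mean of 0.364 on the CHIR99021 array and had 5 large 1-array spots close by. The falling probe lay in row 223 and had a pixel SD over mean of 0.157. Pkp1, which encodes plakophilin 1 of stratified epithelia, gave 5.86 and 115 at its single probe in row 377, at least 5.04-fold higher, with a pixel SD over mean of 0.363. With uneven spots left out Pkp1 had no value. Whether these spots reflect transcripts or the array surface was not tested.

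**Figure D4:**
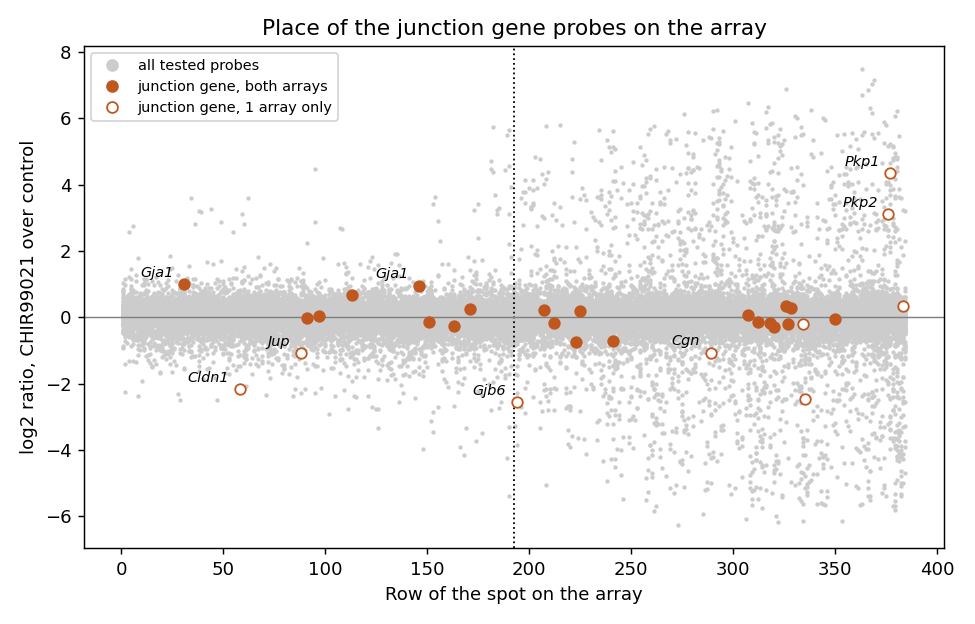
log2 ratio of CHIR99021 over control against the row of the spot on the array, for all tested probes (grey) and the detected junction gene probes (orange, open where well above background on 1 array only). The dotted line is the middle of the array; Pkp1 and the rising Pkp2 probe lie in rows 377 and 376 among many large ratios, whereas the Gja1 probes with a rise lie in the earlier rows.

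The other plakophilin with a clear signal was Pkp4, an armadillo protein also found at adherens junctions. Its 3 probes measured on both arrays gave 2807 and 3211, 810 and 979, and 382 and 428 on the control and CHIR99021 arrays, with ratios of 1.19, 1.25 and 1.16. The SD over them was 0.06 on the log2 scale, and none reached 1.5. The probe with 810 and 979 lies at chr2:59160624-59160683 (mm9, plus strand) within the coding part of the transcript. It is printed with the probe of Cldn4, chr5:135422135-135422194 (mm9, minus strand), also within the coding part, which gave 4.92 and 5.58, as an example of a probe with signal and one without.
Pkp4: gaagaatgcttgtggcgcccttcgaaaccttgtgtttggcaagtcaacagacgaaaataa
Cldn4: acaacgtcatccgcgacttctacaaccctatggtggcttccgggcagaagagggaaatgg

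Perp, a membrane protein needed for desmosome assembly, gave 1682 and 1405 at chr10:18576697-18576756 (mm9), a ratio of 0.866. Dsc3 (desmocollin 3, a desmosomal cadherin) gave 204 and 226, a ratio of 1.15, at 1 of its 3 probes, and the others were detected on neither array. Jup (plakoglobin, shared by desmosomes and adherens junctions) gave 30.5 on the control array and 13.9 (not well above background) on the CHIR99021 array at 1 of 3 probes, at least 1.12-fold lower. Dsp, Dsg2, Dsg3, Dsc2 and Pkp3 had no detected probe.

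Among the tight junction genes 4 of 19 were measured on both arrays, and their ratios ran from 0.878 to 1.03. Cldn12, a claudin found in many tissues, gave 4291 and 4240 at chr5:5505223-5505282 (mm9), a ratio of 1.03. The direction of this ratio turned with the scaling, from 0.980 to 1.05. Tjp1 (ZO-1, the main scaffold) gave 1583 and 1482 at chr7:72441126-72441185 (mm9), a ratio of 0.971, and a second probe gave 236 and 277, a ratio of 1.22. F11r (JAM-A) gave 206 and 180 at chr1:173393848-173393907 (mm9), a ratio of 0.903. Cldn7 gave 59.4 and 50.3 at 1 of 2 probes, a ratio of 0.878. All 4 ratios lay between 0.66 and 1.5.

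The remaining detected tight junction genes lay at the edge of detection on 1 array. Cldn1 gave 28.0 in the control and 5.97 with CHIR99021, in row 58, at least 1.02-fold lower. Cgn (cingulin, a cytoplasmic plaque protein) gave 26.8 and 12.4, for which no bound above 1-fold could be given, and Cldn9 gave 30.5 and 25.3, at least 1.12-fold lower. Cldn3 gave 24.8 (not well above background) in the control and 30.2 with CHIR99021. Its control signal already lay above the lowest detected signal, so the computed ratio of 1.26 is not a lower bound. The log2 ratio was 0.34 with a scanner error of 0.47. Each detected value was close to the lowest detected signal of its array, 23.7 and 26.3. Cldn2, Cldn4, Cldn5, Cldn6, Cldn8, Cldn10, Cldn11, Cldn23, Marveld2 (tricellulin), Ocln and Tjp3 (ZO-3) had no detected probe.

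Other junction genes were read from a further list, of which 58 symbols had a probe. Of these 32 were detected on the control array, beside 64.1% of the genes with a RefSeq mRNA accession, and 27 were measured on both arrays. Among the 27, 1 had a ratio of at most 0.66 (Pard6b, a polarity protein, 80.5 and 42.2, ratio 0.544) and 2 had one of at least 1.5. The shares over all genes measured on both arrays were 5.76% and 5.06%. Ctnnb1, which encodes β-catenin itself, gave 2927 and 2824, a ratio of 1.00. Cdh2 (N-cadherin) gave 3777 and 2779, a ratio of 0.763, and Cdh11, a mesenchymal cadherin, gave 2834 and 2902, a ratio of 1.06. None of the 58 met the criteria for lower and 3 met those for higher, Pvr and Gja5 among them. Of all tested genes 3.22% and 2.63% met them. Pvr, a nectin-like adhesion receptor, gave 3388 and 6024 in row 137, a ratio of 1.84 (Z-score 2.65), and a dim probe in row 175 gave 7.99 (not well above background) and 40.2, at least 1.76-fold higher. Gja5 (connexin 40) gave 4.92 (not well above background) and 180, at least 7.90-fold higher, in row 292 with a pixel SD over mean of 0.330. Another Gja5 probe gave 26.3 in the control and 25.6 (not well above background) with CHIR99021, for which no bound could be given. The median log2 ratio of the 27 genes on both arrays was -0.03.

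As a check of the labels, Lef1, a β-catenin partner and target, gave 239 in the control and 690 with CHIR99021, a ratio of 2.997. Axin2, a feedback inhibitor of the pathway, gave 7.23 (not well above background) and 37.9, at least 1.66-fold higher, and Nkd1 gave 8.45 (not well above background) and 588, at least 25.8-fold higher. The direction went with the CHIR99021 label in all 3, although the Nkd1 spot was uneven and all 3 lay in the later rows (294, 312 and 368).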

How the data were processed

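Total RNA of 1 control and 1 CHIR99021 sample was labelled with Cy3 and read on 1-colour Agilent arrays. The authors deposited spot intensity values after background subtraction, quantified with Feature Extraction (10.7.1.1 in the file headers, 9.5.1.1 in the submitters' processing notes), without normalization between the arrays, and a second table of normalized intensity values. Control spots and outlier spots were left out and spots of the same probe averaged, using pandas 2.3.3 and numpy 2.4.6 under Python 3.11.15. Figures were drawn with matplotlib 3.10.9. Log2 intensities were set relative to the 75th percentile of each array. With 1 array per condition no test was made. A probe detected on 1 array only gives a limit, for which its signal on the other array was raised to the lowest detected signal there where it was below it. The criteria used the ratio as computed.

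Every member with a probe was named, with each detected probe, and of the other junction genes those meeting the criteria or describing a class, and results for some listed genes are not reported here. Members and lists were chosen with earlier results of these data known. By RefSeq accession (GRCm38.p6) all 40 genes matched their symbols. Alternatives were quantile, median and cyclic loess scaling, a percentile over detected probes, no scaling, limma 3.58.1 normexp at offset 50 (run under R 4.3.3), the normalized table, other probe rules, filters and Z-scores, the earlier rows, and leaving out uneven spots.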

Additional observations from a re-analysis of the deposited data

How the results depend on the processing

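The direction and call of Gja1 held under 9 of 10 alternatives in scaling, probes and spots, and Pkp2 was lower under 8 of 9. Taking the mean over all probes of a gene turned Pkp2, whose mean log2 ratio was then 1.19 because of the rising probe in row 376. This setting left 0 members lower and 1 higher by ratio and Z-score. With the earlier rows only, 8 members were detected in the control, 0 were lower and 1 higher by both criteria, 2 were lower and 1 higher by ratio alone, and the median log2 ratio was -0.079. That setting drops probes by construction. Without uneven spots 1 member was higher by both criteria and 1 by ratio alone. With probes detected on both arrays only, 1 was higher by both criteria, 2 lower and 1 higher by ratio alone. With no filter 4 were higher by ratio alone, and the median log2 ratio was 0.13, against 0.18 for all genes. Normexp left 3 lower by ratio alone and a median of -0.088. The median was -0.14 with median scaling, and -0.23 both with the percentile over detected probes and with no scaling. One mean and SD for all Z-scores gave 2 lower (Cldn1 and Gjb6) and 1 higher (Pkp1) by both criteria, so that Gja1 and Pkp2 lost their calls. Counting a member as detected only if every probe was gave 9, and counting signals the software marked as positive and significant gave 25. Where no cause is named, the cause was left untested.

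Each condition had 1 array, both on the same slide, so array position and treatment cannot be told apart. About 50% of the spots were not well above background. For the 7 members measured on 1 array only the size of a difference is a limit, except for Cgn and Cldn3, which have no bound. The median shifts above are within 0.1 of the main value on the log2 scale except with no filter. No paired analysis was possible because there was 1 array for each of the conditions.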
